A study of Rattus norvegicus with 18 samples.

Results

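Molecular chaperones of the cytosol, the mitochondria and the endoplasmic reticulum (ER), with the factors that control them, were followed in rat brain after loss and return of paradoxical sleep, the stage also called rapid eye movement sleep. The set held 45 genes, taken by symbol. Each gene was represented by the probe set with the highest mean over pools among those annotated to its symbol alone, and 41 of the 45 had one, out of 14217 such genes on the array. The filter on dim probe sets was passed by 41 of these 41 genes, against 10294 of the 14217. The 41 fell into 15 cytosolic heat shock genes, 3 mitochondrial chaperones, 18 ER chaperones and quality control genes and 5 ER stress sensors and factors. Hspa1b, Hspa8 and Hsp90aa1 were measured only by probe sets annotated to a further gene as well, and no probe set was annotated to Ern1.

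Male Sprague-Dawley rats of 260 to 300 g, implanted with electrodes for the electroencephalogram and electromyogram, were compared in 3 sleep states. Recovery rats spent 72 h on small platforms over water (the flowerpot method, which prevents paradoxical sleep) and then 6 h in which they could sleep, although the treatment note can be read as 6 h after 78 h. Deprived rats were kept on them for 78 h, and control rats stayed in the home cage. Each state held 12 rats in 2 sets of 6, whose RNA from the right hippocampal formation and the right neocortex was pooled within the set. Each of the 6 groups therefore had n = 2 pools, and the RNA of set 1 was pooled in duplicate from the same rats and measured on 2 arrays, which were averaged, and that of set 2 on 1 array. Platform rats differed from home cage rats in housing as well as in sleep, so these cannot be told apart. Values are array signals, on an arbitrary linear scale in which a probe set is comparable between pools but not with another probe set, and changes are differences of log2 signal.

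The structure labels held in every pool: the summed signal of 9 markers of hippocampal neurons was 2490 to 3235 in hippocampal pools against 985 to 1079 in neocortical pools, and that of 8 markers of neocortical neurons was 1179 to 1681 in hippocampal pools against 3352 to 3664 in neocortical pools. The 2 arrays of set 1 differed by a median of 0.0668 to 0.14 log2 units over the 41 genes, and by up to 1.1 for Pdia4 in the neocortical control pool. The hippocampal pools of set 2 stood apart from those of set 1, for example in Pdia4, so a pair of values for a group is always set 1 and then set 2. The ratio of 3' to 5' signal for β-actin, a measure of RNA integrity and labelling, was 2.33 to 2.52 in hippocampal pools. In neocortical pools it was 3.17 and 2.83 in recovery, 2.98 and 2.35 in deprived and 2.68 and 2.61 in control rats, and its part in the results below was not tested. Because each pool is whole tissue, fewer cells of a type and less RNA per cell cannot be told apart.

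Cells answer unfolded protein with compartment-specific programmes. In the cytosol, the factor HSF1 trimerises and binds heat shock elements, alternating GAA and TTC units, and raises HSP70, HSP40 and small heat shock proteins. In the ER, the sensors IRE1 (Ern1), PERK (Eif2ak3) and ATF6 are held inactive by the chaperone BiP (Hspa5), and on release they act through the factors XBP1, ATF4 and cleaved ATF6 to raise ER chaperones, lectins, disulphide isomerases and degradation components. BiP is known to rise in the cerebral cortex of mice kept awake.

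Elements of both programmes were searched for in the promoters. Promoters of 300 bases around a start of each gene were taken from RefSeq (build GRCr8) for 36 of the 45 genes. For some genes, such as Herpud1, Dnajb9 and Hspa9, this window lay inside the gene and not at its outer end. The counts below therefore describe these windows and not every start of a gene. The ER stress element, CCAAT and CCACG separated by any 9 bases on either strand, was present in 22 of all 33469 promoters (0.0657%), and 7 of these 22 belonged to the set. The 7 genes were 6 of the 15 ER chaperone genes with a promoter and 1 of the 4 ER stress factors. Hsp90b1 had 2 copies. The elements are shown because they are the sequences that join the ER genes described below, with the CCAAT and CCACG ends in capitals and each read on the strand that carries CCAAT.
Hspa5 (chr3:38452973-38452991, plus strand): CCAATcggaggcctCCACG
Hsp90b1 (chr7:23012451-23012469, minus strand): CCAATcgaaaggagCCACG
Hsp90b1 (chr7:23012347-23012365, plus strand): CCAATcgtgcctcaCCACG
Calr (chr19:40213135-40213153, minus strand): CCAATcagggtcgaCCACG
Canx (chr10:35158069-35158087, minus strand): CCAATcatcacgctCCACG
Dnajc3 (chr15:102432534-102432552, plus strand): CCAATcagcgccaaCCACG
Creld2 (chr7:121789239-121789257, minus strand): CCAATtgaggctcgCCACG
Xbp1 (chr14:84604558-84604576, plus strand): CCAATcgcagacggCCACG

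The whole promoter window of Hspa5, the ER gene with the largest deprivation difference in the hippocampal formation, is given with its element in capitals (chr3:38452766-38453065, plus strand).
Hspa5: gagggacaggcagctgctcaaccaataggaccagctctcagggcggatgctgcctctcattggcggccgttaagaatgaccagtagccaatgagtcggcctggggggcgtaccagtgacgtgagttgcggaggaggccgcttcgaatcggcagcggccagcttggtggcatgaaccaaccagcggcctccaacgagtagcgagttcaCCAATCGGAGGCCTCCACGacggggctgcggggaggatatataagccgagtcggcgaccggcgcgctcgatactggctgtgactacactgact

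Heat shock elements of at least 3 alternating units (GAA, TTC and GAA, or TTC, GAA and TTC, with any 2 bases between units, on either strand) were present in 267 of the 33469 promoters (0.798%). In the set they were found in 4 of 14 cytosolic genes, 2 of 3 mitochondrial genes, 0 of 15 ER chaperone genes and 0 of 4 ER stress factors. The shorter pair GAANNTTC was present in 8.59% of all promoters and in 12 of the 36 genes, and TTCNNGAA in 8.77% and in 10. Units that match are in capitals below, read in the direction of each gene.
Hspa8 (chr8:50080301-50080313, plus strand): GAAagTTCcaGAA
Hspa8 (chr8:50080459-50080471, plus strand): TTCtgGAAggTTC
Hsph1 (chr12:10427332-10427344, plus strand): TTCtgGAAagTTC
Dnaja1 (chr5:60638413-60638425, plus strand): GAActTTCcaGAA
Chordc1 (chr8:23650831-23650853, plus strand): GAAcgTTCggGAAgaTTCctGAA
Hspd1 (chr9:64084262-64084279, minus strand): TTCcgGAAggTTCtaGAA
Hspe1 (chr9:64084262-64084279, plus strand): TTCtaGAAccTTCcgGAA

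Hspd1 and Hspe1, which encode the mitochondrial chaperonin HSP60 and its lid HSP10, are divergent neighbours on chromosome 9. Their windows shared 211 bases, and the last 2 lines are the same 18 bases read from opposite strands. Other motifs were rarer in the set: TGACGTGG, an XBP1 and ATF6 element, was present in 0.595% of all promoters and in Hyou1 and Bag3, and TGATGCAAT, a C/EBP-ATF element, in 0.188% and in 0 of the 36 genes. A match describes these windows and does not show that a factor binds there.

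No gene of the set passed the test between sleep states. With limma on all 6 groups, 0 of 41 genes were called in each of the 6 comparisons at an adjusted p under 0.05, where 0 of 18625 probe sets (0.0%) were called as well. At an unadjusted p under 0.05 the deprived against control comparison of the hippocampal formation held 1 of the 41 genes, Hspa5, beside 1.1% of all probe sets, and the other 5 held 0, beside 1.51% for recovery against control and 1.62% for recovery against deprived pools in the hippocampal formation, and 1.11% for deprived against control, 1.12% for recovery against control and 0.907% for recovery against deprived pools in the neocortex. With the set of rats as a block, 0 of 41 genes were called in each as well, where 0.0107% of all probe sets were called for deprived against control and 0.00537% for recovery against deprived neocortical pools. At an unadjusted p under 0.05 the block gave 6 of 41 genes for deprived against control (5.94% of all probe sets), 4 for recovery against control (7.32%) and 4 for recovery against deprived pools (7.16%) in the hippocampal formation. In the neocortex it gave 4 for deprived against control (5.74%), 4 for recovery against control (5.79%) and 2 for recovery against deprived pools (4.56%). Differences between states are therefore given as values, with the count of genes whose 2 pools did not overlap between groups. Counts of genes cover the 41 alone. They leave out the probe sets shared with a further gene, such as that of Hspa1a and Hspa1b.

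In the hippocampal formation 31 of the 41 genes had a higher mean in deprived than in control rats, with a median log2 change of 0.076, while 51.2% of all probe sets did, with a median of 0.004. Both deprived pools lay above both control pools for 12 genes (29.3%), against 10.0% of all probe sets, and below for 0, against 9.33%. Among the brightest 4656 probe sets, which held 23 of the 41 genes, the share above was 7.04%. In the neocortex 30 of the 41 genes had a higher mean in deprived rats, with a median of 0.094 beside 0.009 over all probe sets. There, both deprived pools lay above both control pools for 8 genes (19.5%), against 13.1% of all probe sets, and below for 1, Hspe1, against 11.4%. The neocortical change was below 0 in both sets for 6 of the 41 (14.6%), against 24.7%. The brightest 4656 probe sets in that comparison had a median of -0.023, with 6.49% above.

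**Figure D1:**
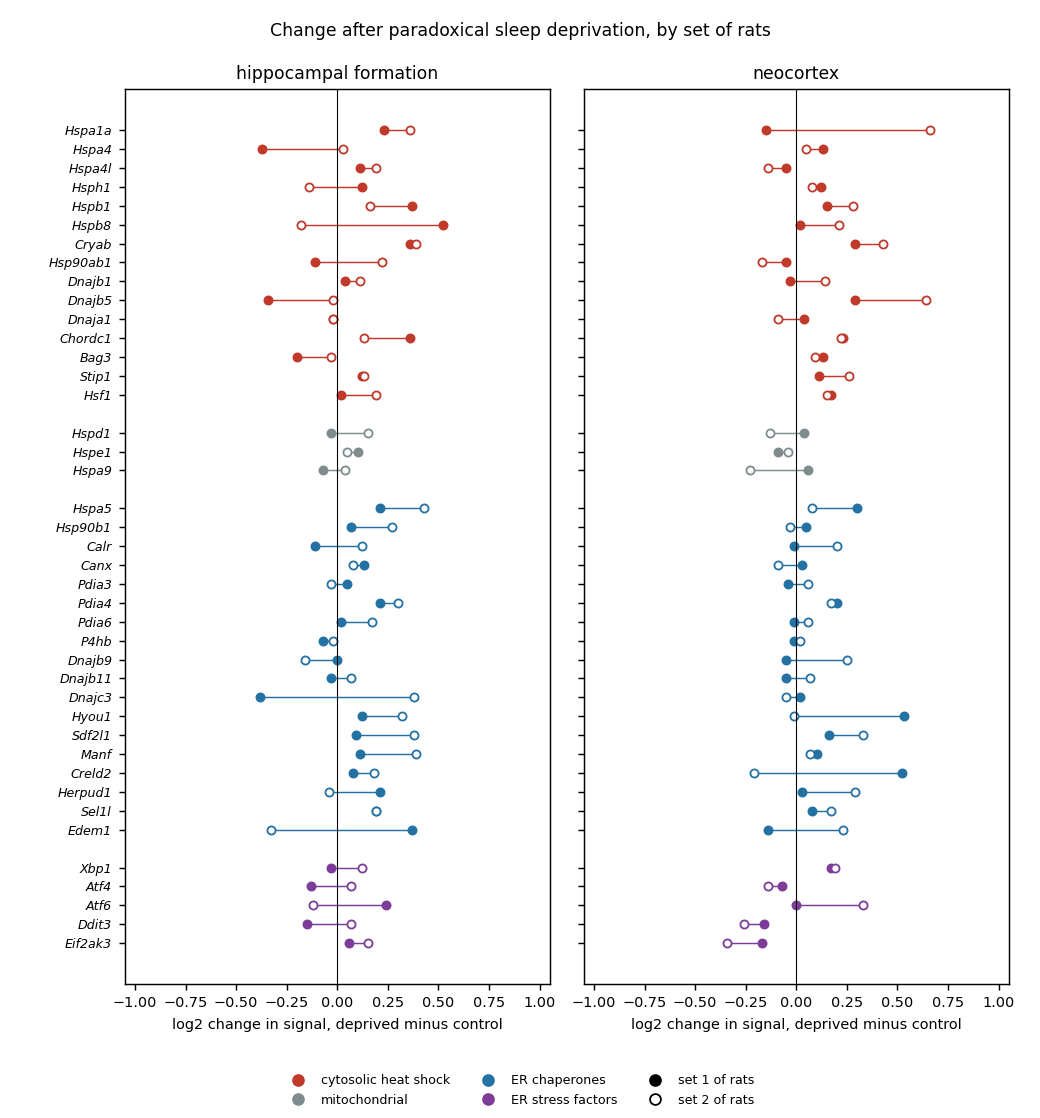
Log2 change in signal, deprived minus control, for each of the 41 genes (rows, grouped by role) in the hippocampal formation (left) and the neocortex (right). Filled points are set 1 and open points set 2, each from 1 pool of 6 deprived and 1 pool of 6 control rats. In the hippocampal formation both points lie right of 0 for 20 of the 41 genes, and in the neocortex for 17.

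Cytosolic heat shock genes lay mostly above control in both structures. Of 15 genes, 10 were higher in deprived hippocampal pools, with a median log2 change of 0.104 (0.114 in set 1 and 0.127 in set 2), and 6 (against 10.0% of all probe sets) had deprived pools above both controls. In the neocortex 12 of 15 were higher, with a median of 0.118 (0.117 in set 1 and 0.149 in set 2), and 5 (against 13.1%) had deprived pools above both controls. Recovery values lay mostly above control as well, with 11 of 15 genes higher in recovery hippocampal pools (median 0.084) and 12 of 15 in recovery neocortical pools (median 0.15). The pools did not overlap, with recovery higher, for 4 of the 15 in the hippocampal formation, where 10.0% of all probe sets did so, and for 5 in the neocortex, where 11.9% did. Recovery was lower without overlap for 1 of the 41 genes in the hippocampal formation, Hspa4, against 9.87% of all probe sets.

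Cryab encodes αB-crystallin, a small heat shock protein that holds unfolded protein and is abundant in oligodendrocytes. Its hippocampal signal was 297 and 286 in recovery, 296 and 319 in deprived and 231 and 243 in control pools. Both recovery and both deprived pools were above both controls. The log2 change was 0.37 in deprived (SE 0.211, limma adjusted p = 1.0) and 0.30 in recovery pools, each against control. Its neocortical signal was 201 and 310 in recovery, 240 and 332 in deprived and 197 and 246 in control pools, so the groups overlapped, while within each set the deprived pool was the highest (change of 0.29 in set 1 and 0.43 in set 2). Markers of oligodendrocytes were mostly below control in deprived hippocampal pools: 10 of 11 were below control with a median of -0.143, but the median was -0.277 in set 1 and 0.045 in set 2, and 4 of 11 were below in both sets. Their summed signal was 14200 and 13217 in deprived against 16404 and 12020 in control pools. The part of these cells in the Cryab values was not tested.

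The inducible HSP70 genes Hspa1a and Hspa1b are near-identical copies, so their values are uncertain as to which gene they report. The probe set annotated to both gave 83.0 and 67.0 in recovery, 65.2 and 72.3 in deprived and 51.1 and 54.1 in control hippocampal pools. In the neocortex it gave 40.3 and 41.4 in recovery, 42.5 and 47.5 in deprived and 35.1 and 24.8 in control pools. In each structure, both recovery and both deprived pools were above both controls. The log2 changes against control were 0.50 in recovery and 0.39 in deprived hippocampal pools, and 0.47 in recovery and 0.61 in deprived neocortical pools, with SE 0.194 and limma adjusted p = 1.0 throughout. The probe set annotated to Hspa1a alone gave 54.0 and 50.7 in recovery, 58.3 and 50.4 in deprived and 49.8 and 39.4 in control hippocampal pools, again with no overlap with control. In the neocortex that probe set gave 33.9 and 33.4 in recovery, 38.4 and 40.1 in deprived and 42.6 and 25.4 in control pools, and all 4 of these recovery and deprived pools lay between the controls, so the 2 probe sets disagree there.

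Dnajb5, an HSP40 cochaperone, gave the largest neocortical difference among the 15 cytosolic genes. Its signal there was 151 and 222 in recovery, 140 and 229 in deprived and 114 and 147 in control pools. The recovery pools were above both controls, and the deprived pool was above the control pool of its own set in each set. The log2 change was 0.50 in recovery and 0.46 in deprived pools (SE 0.28 each, limma adjusted p = 1.0). Its hippocampal signal was 174 and 236 in recovery, 153 and 210 in deprived and 193 and 213 in control pools, which overlapped. Only this probe set showed the contrast between structures: the other 2 probe sets of Dnajb5 gave changes of 0.19 and -0.11 in deprived neocortex and of 0.26 and 0.15 in deprived hippocampal formation. In recovery neocortex those 2 gave 0.21 and -0.35 against control.

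Other cytosolic genes followed no single direction. Chordc1, an HSP90 cochaperone whose promoter carries the 5-unit element, had a log2 change of 0.25 in deprived hippocampal and 0.23 in deprived neocortical pools. Its neocortical signal was 280 and 307 in deprived against 238 and 263 in control pools, with no overlap. The hippocampal signal was 271 and 335 in deprived against 211 and 306 in control pools, which overlapped. The 2 arrays behind that set 1 control value differed by 0.408 log2 units. Stip1, the adaptor between HSP70 and HSP90, was 0.12 above control in deprived hippocampal and 0.19 in deprived neocortical pools. The small heat shock gene Hspb1 was above control by 0.26 and 0.21, and its hippocampal signal ran from 35.9 to 78.5 over all 6 pools, so the groups overlapped. Hspb8, a small heat shock protein that works with BAG3, was 89.9 and 73.3 in recovery, 73.7 and 76.1 in deprived and 72.5 and 65.6 in control neocortical pools, with both controls lowest. Hspa4l, an HSP110 relative, was 342 and 349 in recovery, 381 and 372 in deprived and 352 and 327 in control hippocampal pools, with both deprived pools highest (0.15 against control). Hsf1 itself, the master factor, was 59.6 and 60.3 in deprived against 58.8 and 52.9 in control hippocampal pools, and 62.2 and 68.4 in deprived against 55.3 and 61.7 in control neocortical pools, changes of 0.10 and 0.16. The HSP110 genes split, with Hsph1 at -0.01 in deprived hippocampal and 0.10 in deprived neocortical pools, and Hspa4 at -0.17 and 0.09. On recovery Hspa4 had a log2 change of -0.35 against control in the hippocampal formation, the only gene of the 41 lower there without overlap.

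The abundant constitutive chaperones stayed near control. Hsp90ab1 (HSP90β) differed from control by 0.06 in deprived hippocampal and -0.11 in deprived neocortical pools. Dnaja1, an HSP40 partner of HSP70, differed from control by -0.02 in each. The probe set shared by Hspa8, the constitutive HSP70, and Haus8l2 was 0.05 and 0.06 above. The 2 probe sets shared by Hsp90aa1 and a pseudogene annotated Hsp90aa1-ps17 were at most 0.11 above control. Of the 4 cytosolic genes with a 3-unit heat shock element, Chordc1 alone had a change above 0.2 in either structure on deprivation.

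**Figure D2:**
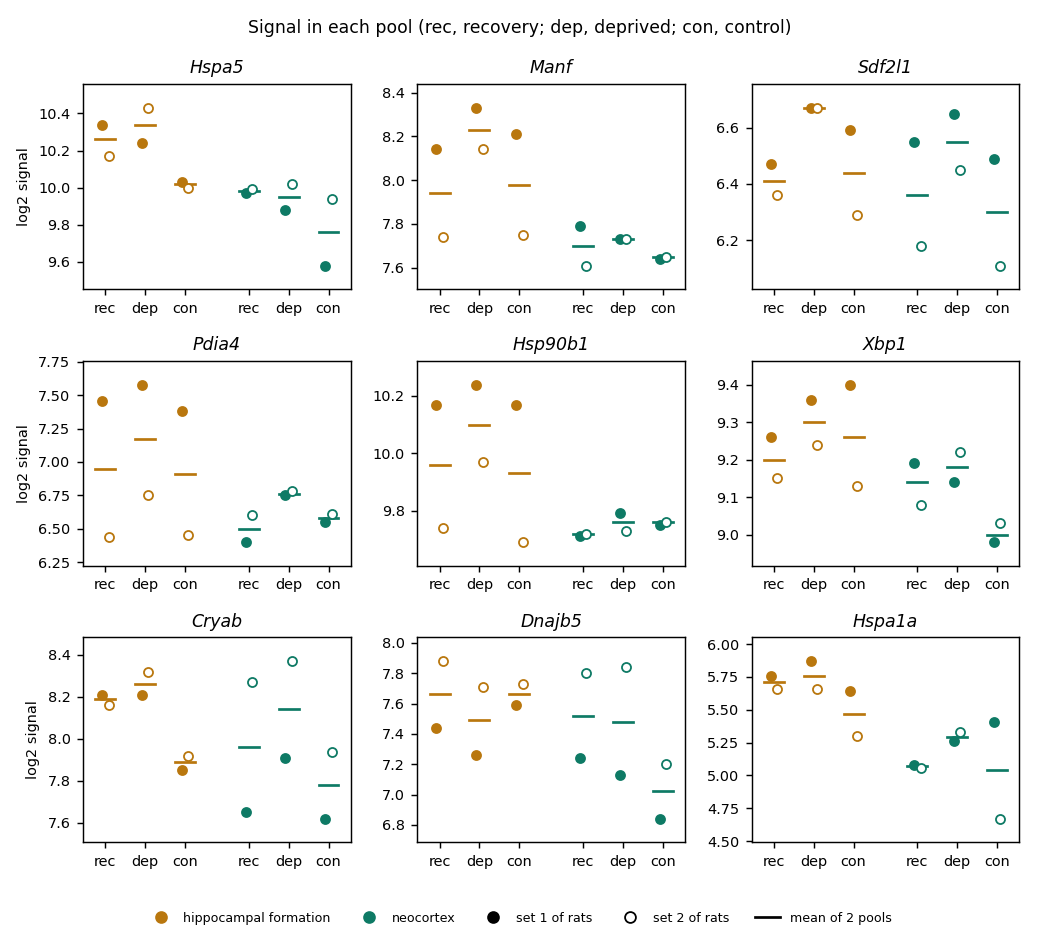
Log2 signal of 9 genes in every pool, for the hippocampal formation (brown) and the neocortex (green), in recovery, deprived and control rats. Filled points are set 1, open points set 2 and lines the mean of the 2 pools. Cryab and Hspa5 hippocampal controls lie below all other hippocampal pools, and Pdia4 separates sets more than states.

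Mitochondrial chaperones lay close to control. In the neocortex 0 of 3 were above control in deprived pools (median -0.066) or in recovery pools (median -0.065). Of the 3, 2 were above control in deprived and in recovery hippocampal pools (medians 0.057 and 0.044, and -0.139 and -0.22 without the set 2 control pool). Hspe1 was 1144 and 1072 in recovery, 1126 and 1075 in deprived and 1050 and 1038 in control hippocampal pools. In the neocortex it was 987 and 951 in recovery, 972 and 964 in deprived and 1038 and 990 in control pools. Both deprived and both recovery pools were thus above control in the hippocampal formation and below it in the neocortex. The test of the difference between structures gave 0.14 on deprivation (SE 0.106, limma adjusted p = 1.0) and 0.15 on recovery (adjusted p = 1.0). Hspd1, which shares its promoter, differed from control by 0.06 in deprived hippocampal and -0.04 in deprived neocortical pools, and Hspa9 (mortalin, the mitochondrial HSP70) by -0.01 and -0.09.

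ER chaperones and quality control genes were above control in 16 of 18 cases in deprived hippocampal pools, with a median log2 change of 0.101 (0.083 in set 1 and 0.177 in set 2). The change was above 0 in both sets for 10 of the 18 (55.6%), against 26.1% of all probe sets, and both deprived pools lay above both controls for 5, against 10.0%. In deprived neocortical pools 16 of 18 were above control as well, with a median of 0.09, but the change was above 0 in both sets for 6 (33.3%), against 28.4% of all probe sets, and both deprived pools lay above both controls for 2 (11.1%), against 13.1%. In recovery pools 10 of 18 were above control in the hippocampal formation (median 0.022) and 13 of 18 in the neocortex (median 0.058). The hippocampal medians depended on single pools: without the set 2 control pool they were 0.002 on deprivation and -0.123 on recovery, and without the set 1 control pool 0.209 and 0.141. Without the set 1 recovery pool the recovery median was -0.058.

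Hspa5, which encodes BiP, the HSP70 of the ER, had the largest hippocampal difference of the group. Its signal was 1298 and 1156 in recovery, 1209 and 1382 in deprived and 1048 and 1025 in control hippocampal pools. Both recovery and both deprived pools were above both controls. The log2 change was 0.32 in deprived (SE 0.131, limma adjusted p = 1.0) and 0.24 in recovery pools. In the neocortex the signal was 1005 and 1018 in recovery, 945 and 1040 in deprived and 768 and 982 in control pools, changes of 0.22 in recovery and 0.19 in deprived pools. There the recovery pools were above both controls, while the deprived pool of set 1 was below the control pool of set 2.

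Some cofactors and quality control genes also lay above control in deprived hippocampal pools, while others did not. The BiP cochaperone Dnajb9 gave 282 and 320 in deprived against 281 and 358 in control pools. Edem1 changed by 0.02 and Dnajc3 by 0.00. Sdf2l1, a cofactor of BiP and of its partner Dnajb11, gave 88.5 and 82.0 in recovery, 102 and 102 in deprived and 96.1 and 78.0 in control pools. Manf, a secreted ER stress protein, gave 283 and 214 in recovery, 321 and 282 in deprived and 297 and 215 in control pools. For both genes the deprived pool was the highest of its set, in each set. Their log2 changes on deprivation were 0.23 and 0.25, with adjusted p = 1.0 in limma. Sel1l, the scaffold of the ER degradation ligase, gave 108 and 110 in deprived against 94.8 and 96.5 in control hippocampal pools, a change of 0.19 in each set.

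The disulphide isomerase gene Pdia4 gave 177 and 86.8 in recovery, 192 and 107 in deprived and 166 and 87.3 in control hippocampal pools. Set 1 was thus well above set 2 in every state, whereas the deprived pool was above the control pool by 0.21 in set 1 and 0.30 in set 2. Its neocortical values were 84.5 and 96.8 in recovery, 108 and 110 in deprived and 94.0 and 97.5 in control pools, with both deprived pools above the rest. The 2 arrays behind the set 1 control value differed by 1.1 log2 units, a gap wider than the neocortical change of 0.18 on deprivation. Hsp90b1 (GRP94, the HSP90 of the ER) differed from control by 0.17 in deprived hippocampal pools and by 0.01 in deprived neocortical pools. Other isomerases and lectins were close to control in deprived hippocampal pools, with Pdia3 at 0.01, P4hb at -0.05, Pdia6 at 0.09, Calr (calreticulin) at 0.00 and Canx (calnexin) at 0.11. Hyou1, the large HSP70 relative of the ER, was above control by 0.22 in deprived hippocampal and 0.26 in deprived neocortical pools, the neocortical value resting on set 1 (0.53, against -0.01 in set 2).

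Further ER genes are given by pool, with adjusted p = 1.0 in limma for each. Dnajb9, a cochaperone of BiP, had 337 and 370 in recovery, 325 and 382 in deprived and 336 and 321 in control neocortical pools, with both recovery pools above both controls. Hsp90b1 had 836 and 846 in recovery, 887 and 849 in deprived and 859 and 870 in control neocortical pools, where both recovery pools were the lowest (-0.04 against control). Sel1l had 99.4 and 112 and Dnajb11 198 and 181 in recovery hippocampal pools, against 94.8 and 96.5 for Sel1l and 178 and 163 for Dnajb11 in control pools, with no overlap for either gene. Herpud1, a degradation adaptor of the ER membrane, was above control by 0.09 in deprived hippocampal and 0.16 in deprived neocortical pools, and its pools overlapped in both.

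The 7 genes with the ER stress element spread widely. In deprived hippocampal pools their log2 changes against control were 0.32 for Hspa5, 0.17 for Hsp90b1, 0.13 for Creld2, 0.11 for Canx, 0.04 for Xbp1 and 0.00 for Calr and Dnajc3. In deprived neocortical pools they were 0.19 for Hspa5, 0.18 for Xbp1, 0.15 for Creld2, 0.09 for Calr, 0.01 for Hsp90b1, -0.02 for Dnajc3 and -0.03 for Canx. The value of 0.00 for Dnajc3, a cochaperone of BiP, averaged -0.38 in set 1 and 0.38 in set 2.

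The 6 h of sleep opportunity were compared with continued deprivation. In the hippocampal formation the ER group was lower in recovery than in deprived pools in 13 of 18 cases, with a median of -0.073 (0.006 without the set 2 recovery pool, -0.153 without that of set 1), and 11 of the 18 (61.1%) were lower in both sets, against 27.0% of all probe sets. The pools did not overlap, with recovery lower, for 3 of them, against 11.4%. The log2 changes were -0.29 for Manf, -0.26 for Sdf2l1, -0.21 for Pdia4, -0.19 for Dnajc3, -0.15 for Hsp90b1 and -0.08 for Hspa5, with limma adjusted p = 1.0. Edem1, which directs misfolded glycoproteins to degradation, had 128 and 144 in recovery against 117 and 121 in deprived pools (0.19), and Dnajb11, an ER cochaperone, had 198 and 181 in recovery against 175 and 170 in deprived pools (0.13). The 2 arrays behind the set 1 recovery value of Edem1 differed by 0.529 log2 units. Dnajc3 had 55.9 and 45.3 in recovery against 56.9 and 57.7 in deprived pools. The change was above 0 in both sets for 8 of the 41 genes (19.5%), against 26.6% of all probe sets. In the neocortex 9 of 18 were lower, with a median of -0.014, and Pdia4 (-0.26) and Sel1l (-0.24) had the largest differences among the ER chaperone and quality control genes whose pools did not overlap. Sel1l had 80.0 and 93.0 in recovery against 107 and 97.2 in deprived neocortical pools, and Canx 1358 and 1387 against 1259 and 1320. This probe set of Canx changed by 0.09, while its other 2 probe sets changed by -0.14 and -0.05. For Sel1l, the 2 arrays behind the set 1 recovery value differed by 0.333 log2 units. Of all 41 genes, 12 (29.3%) were lower in both sets in the neocortex, against 28.6% of all probe sets. The comparisons of recovery and of deprivation with control share the control pools, and this one shares the recovery and deprived pools with them, so they are not independent.

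**Figure D3:**
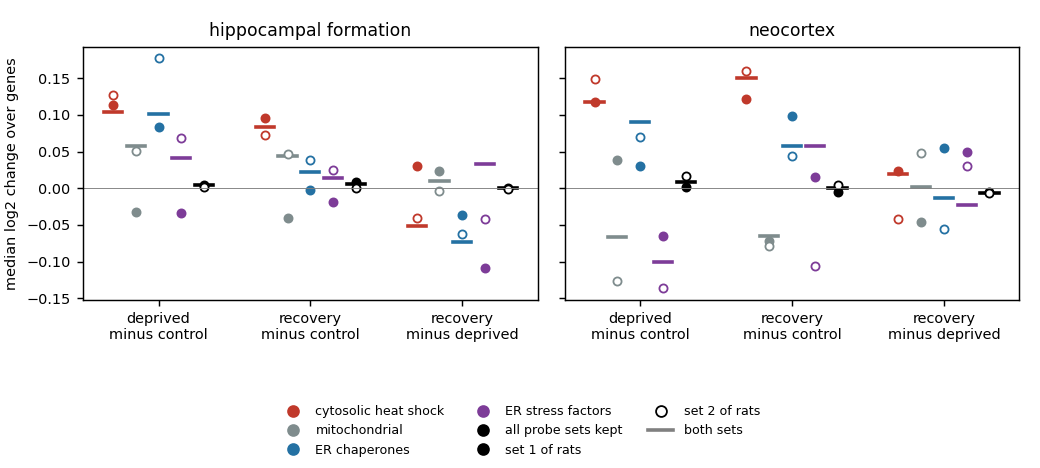
Median log2 change over the genes of each role and over all probe sets kept, for 3 comparisons in the hippocampal formation (left) and the neocortex (right). Lines are the median from both sets together, filled points that of set 1 and open points that of set 2. The median over all probe sets stays near 0, cytosolic medians against control are above 0 in both structures and both sets, and the hippocampal ER median is above 0 on deprivation and below 0 in recovery against deprivation, a sign that is lost without the set 2 recovery pool (0.006).

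The ER stress sensors and factors lay on both sides of control. Their median log2 change was 0.041 in deprived hippocampal pools, with 3 of 5 above control, and -0.101 in deprived neocortical pools, with 2 of 5 above. Xbp1, the factor activated by splicing, gave 584 and 542 in recovery, 565 and 595 in deprived and 503 and 522 in control neocortical pools. Both recovery and both deprived neocortical pools were above both controls, by 0.13 and 0.18 on average (limma adjusted p = 1.0). Its hippocampal values were 611 and 569 in recovery, 659 and 607 in deprived and 675 and 560 in control pools, which overlapped.

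Ddit3 (CHOP), a factor of prolonged ER stress, gave 126 and 124 in recovery, 96.4 and 111 in deprived and 108 and 134 in control neocortical pools. Both recovery pools were above both deprived pools (0.27, limma adjusted p = 1.0), and the deprived pools differed from control by -0.21. Hippocampal Ddit3 differed from control by 0.01 in recovery and -0.04 in deprived pools. Atf4, the factor translated when PERK is active, differed from control by -0.03 in deprived hippocampal and -0.10 in deprived neocortical pools. Eif2ak3, which encodes PERK, was 58.8 and 85.3 in recovery, 71.0 and 82.8 in deprived and 79.9 and 104 in control neocortical pools, log2 differences from control of -0.37 and -0.25. Its hippocampal differences from control were 0.05 in recovery and 0.11 in deprived pools. Atf6 differed from control by 0.06 in deprived hippocampal and 0.16 in deprived neocortical pools.

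More genes were called between the structures than between the sleep states. On the hippocampal minus neocortical difference of each animal pool, 9 of the 41 genes (22.0%) were called, against 19.9% of all probe sets. These 9 were higher in the hippocampal formation, where 9.4% of all probe sets were called higher and 10.5% lower. They were 3 of 15 cytosolic genes (Hspa1a, Dnajb5 and Bag3), 5 of 18 ER genes (Hspa5, Canx, Pdia3, Dnajb11 and Manf), 1 of 5 ER stress factors (Ddit3) and 0 of 3 mitochondrial genes. The total of calls is near the background. The median difference was 0.145 for cytosolic, 0.168 for mitochondrial and 0.227 for ER genes, and -0.045 for the ER stress factors, against -0.015 for all probe sets and 0.035 for the brightest 4656, of which 15.7% were called higher.

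Hspa1a was 39.4 to 58.3, with a median of 50.5, in the 6 hippocampal pools, against 25.4 to 42.6, with a median of 36.1, in the 6 neocortical pools. The difference was above 0 in 6 of 6 animal pools and averaged 0.51 (SE 0.103, limma adjusted p = 0.0152). The probe set it shares with Hspa1b was higher by 0.77 (adjusted p = 0.00381). Bag3, a cochaperone that links HSP70 to autophagy, was higher by 0.35 (adjusted p = 0.0289), with pool differences of 0.18 to 0.54 and signals of 53.7 to 68.1 in hippocampal against 38.9 to 52.9 in neocortical pools. Dnajb5 was higher by 0.26 on average (adjusted p = 0.0342), with differences of 0.20 and 0.09 in recovery rats, 0.13 and -0.12 in deprived rats and 0.76 and 0.54 in control rats. The probe set shared by Hspa8 and Haus8l2 was higher by 0.19 (adjusted p = 0.0229).

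Among the ER genes, Hspa5 was 1025 to 1382, with a median of 1182, in hippocampal pools against 768 to 1040, with a median of 994, in neocortical pools. The difference was above 0 in 6 of 6 animal pools and averaged 0.30 (SE 0.0629, limma adjusted p = 0.0165). Manf was 214 to 321 in hippocampal against 195 to 222 in neocortical pools, higher by 0.36 (adjusted p = 0.0212), and Dnajb11 was higher by 0.25 (adjusted p = 0.0253), with Dnajb11 pool differences of 0.18 to 0.30. Pdia3 (ERp57) was higher by 0.49 (adjusted p = 0.0326), but set 1 gave 0.76 to 0.86 and set 2 gave 0.15 to 0.25, and its other probe set differed by -0.02. Canx was higher by 0.20 (adjusted p = 0.0359), and its other 2 probe sets by 0.33 and 0.11 (adjusted p = 0.0822 and 0.191). Ddit3 was higher by 0.27 (adjusted p = 0.0303), above 0 in 6 of 6 animal pools, with signals of 124 to 151 in hippocampal against 96.4 to 134 in neocortical pools. The difference was above 0 in all 6 animal pools for 12 of the 41 genes, against 14.3% of all probe sets, and below 0 in all 6 for 1, Dnajb1, against 14.8%. Among the brightest 4656 probe sets, which held 23 of the 41 genes, the share above 0 in all 6 was 23.5%. Of the 12, the genes that were not called were Hspe1 (0.14, adjusted p = 0.061), Xbp1 (0.15, adjusted p = 0.122), Dnaja1 (0.10, adjusted p = 0.16) and Hsp90ab1 (0.16, adjusted p = 0.0838), whose lowest difference rounded to 0.0. The other probe set of Hsp90ab1 was higher by 0.23 and was called (adjusted p = 0.0135).

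**Figure D4:**
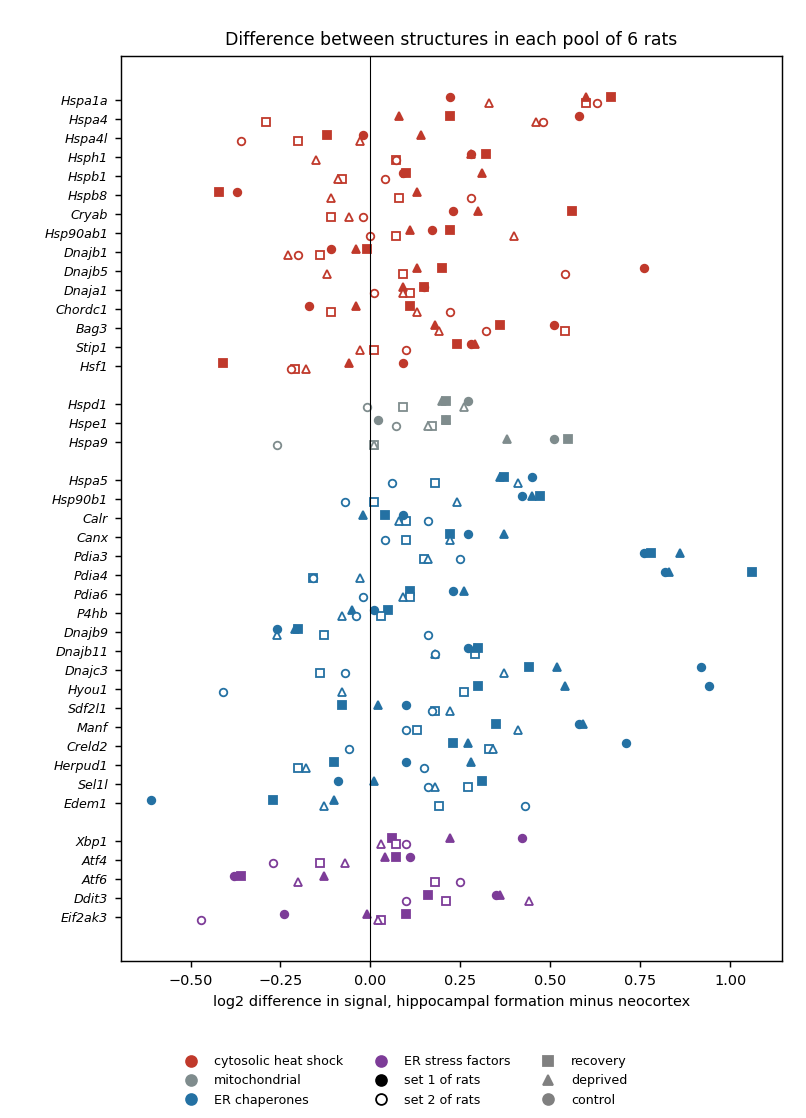
Hippocampal minus neocortical log2 signal for each gene (rows, grouped by role) in each of the 6 animal pools. Filled symbols are set 1, open symbols set 2, and shapes give the sleep state. The ER median is 0.286 in set 1 and 0.115 in set 2, and for Pdia4 the sets do not meet.

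The sets of rats disagreed on this difference. The ER median was 0.286 in set 1 and 0.115 in set 2, and the cytosolic median 0.167 and 0.068. Pdia4 differed by 0.82 to 1.06 in the pools of set 1 and by -0.16 to -0.03 in those of set 2, averaging 0.40 (adjusted p = 0.203). With the set as a block 26 of the 41 genes were called, 24 higher and 2 lower (Dnajb1 and Dnajb9) in the hippocampal formation. Of all probe sets 43.0% were called, 20.3% higher and 22.7% lower. Set 1 alone called 28, beside 45.6% of all probe sets, and set 2 alone 1, beside 14.7%. The number of calls depended on single pools. Without the set 1 deprived pool 0 genes were called, beside 8.72% of all probe sets, and without the set 1 recovery pool 0 as well, beside 9.61%. Dropping the set 1 controls left 2 (11.7% of all probe sets), dropping the set 2 deprived rats 2 (12.6%), dropping the set 2 recovery rats 5 (2791 of 18625 probe sets) and dropping the set 2 controls 15 (24.2%). When any 1 animal pool was dropped, the difference ranged over 0.44 to 0.58 for Hspa1a, 0.24 to 0.37 for Hspa5 and 0.32 to 0.38 for Bag3. It ranged over 0.23 to 0.27 for Dnajb11 and 0.23 to 0.31 for Ddit3. The differences of the 9 called genes stayed above 0, but all except Dnajb5 were above 0 in every animal pool, so their sign could not turn.

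Whether the structures responded differently to sleep state was tested directly, and 0 of 41 genes were called in each of the 3 contrasts (0.0% of all probe sets, with 1.14% to 1.6% at an unadjusted p under 0.05). Dnajb5 had the largest difference on deprivation, -0.64 (SE 0.165, limma adjusted p = 1.0), with -0.62 in set 1 and -0.66 in set 2. On recovery against control Hspa4 gave -0.56 and Dnajb5 -0.50, each with limma adjusted p = 1.0. Eif2ak3 gave 0.36 on deprivation and 0.42 on recovery (limma adjusted p = 1.0 each). In hippocampal pools Hspa4 was 296 and 289 in recovery against 361 and 382 in control rats, with no overlap, and in neocortical pools it was 254 and 354 in recovery against 242 and 275 in control rats.

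Of the 41 genes, 12 had several probe sets past the filter, and these were of both signs for 4 genes in deprived against control hippocampal pools and for 5 in neocortical pools. For recovery against control they were of both signs for 1 gene in the hippocampal formation and 7 in the neocortex. For recovery against deprived pools the counts were 5 in the hippocampal formation and 6 in the neocortex. Markers of other cells also differed with the sleep states. Of 3 red cell markers, 3 were below control in deprived hippocampal pools (median -0.548) and in recovery pools of the hippocampal formation (median -1.19) and the neocortex (median -1.08). Of 9 markers of meninges and fibroblasts, both recovery pools lay below both controls for 5 (55.6%) in the hippocampal formation (median -0.32), against 9.87% of all probe sets, and for 5 in the neocortex (median -0.259), against 12.1%. Of 8 markers of neocortical neurons, 6 were below control in recovery (median -0.275) and 6 in deprived hippocampal pools (median -0.154). Of 9 endothelial markers, 7 were below control in deprived hippocampal pools (median -0.085). The summed signal of 6 choroid plexus markers, 4 of them past the filter, was 1722 and 780 in recovery, 5794 and 922 in deprived and 3544 and 1830 in control hippocampal pools. Their part in the values of the chaperone genes was not tested.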

How the data were processed

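Expression was measured in rat neocortex and hippocampal formation on Affymetrix rat genome arrays. The deposited values are signal intensity on a linear scale, which the authors made with MAS5, per the submitters' processing notes; its version, background settings and scaling target are not given in the sources used here. Signals were floored at 1 and taken to log2, the 2 arrays of set 1 (pooled independently from the same rats) were averaged, and control probe sets and the dimmest 40% were left out, keeping 18625 of 31042.

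Sleep states were compared with limma 3.58.1 in R 4.3.3 on all 6 groups of 2 pools, and structures on the hippocampal minus neocortical difference of each animal pool, with Benjamini-Hochberg adjustment over all kept probe sets. Summaries and figures used Python 3.11.15, numpy 2.4.6, pandas 2.3.3 and matplotlib 3.10.9. P-values rest on the spread between pools of 6 rats, which includes what pools of 1 set shared. With the set as a block, they rest on the spread left after the mean difference between sets was taken out. In the fits of each set alone, the pools were the 3 sleep states of that set. Pool values or their range are given chiefly for genes called and, per role and comparison, for up to 3 with the largest change among those whose pools did not overlap and moved 1 way in both sets; Hspa1a, Hspa1b, Hspa5, Xbp1, Atf4, Ddit3 and Hsf1 were always described, and 2 genes per wider list and comparison by smallest p. Others, such as Manf, Hyou1 and Cryab in the neocortex, were described after their values were seen. The genes and lists were chosen with earlier results of these data known. Pools with 1 set number strayed from their groups together, with correlations of 0.539 to 0.587 in the neocortex and 0.607 to 0.682 in the hippocampal formation, over probe sets; the labels do not say what a set shared. Alternatives were the set as a block, quantile normalisation, log2 of signal plus 16, no filter, the mean of probe sets, random blocks for pools and leaving out each pool; each set alone was added after seeing the data. The fits were also run on simulated pools, drawn independently of each other. Real pools strayed together by set, so that run does not show how the fits behave on these data. Protein sequences were not used here.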

Additional observations from a re-analysis of the deposited data

Results flagged for a closer look

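Hspe1, the mitochondrial HSP10 gene, stood above control in every hippocampal pool and below control in every neocortical pool after deprivation, with mean log2 changes of 0.08 in the hippocampal formation and -0.07 in the neocortex. The difference between the structures was 0.14 (limma adjusted p = 1.0). The same held on recovery, with 0.09 in the hippocampal formation and -0.07 in the neocortex, a difference of 0.15 (limma adjusted p = 1.0). Both comparisons share the control pools.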

How the results depend on the processing

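The genes named by the rule for pool values kept their sign under the alternatives run for single genes. Each set alone was run for counts of calls only, and the mean of probe sets for medians only. Apart from genes called between structures, they were chosen for pools that did not overlap, so leaving out 1 pool could not turn their sign. Medians of the role groups did change sign: 25 of 40 in at least 1 setting that left out 1 pool, and 11 of 28 without the hippocampal pools of set 2. The count was 4 of 40 with the mean of a gene's probe sets and 3 of 40 after quantile normalisation. It was 0 of 40 with the block, without the filter or with log2 of signal plus 16. The number of genes called between structures was 26 with the set as a replicate block, 28 in set 1 alone and 1 in set 2 alone (both added after seeing the data), and 0 to 15 when 1 pool was left out; the block called 0 of the 41 genes between sleep states. Taking the mean of a gene's probe sets gave a cytosolic median of -0.02 for neocortical recovery against deprivation. Without the hippocampal pools of set 2, the ER stress factor medians were -0.034 for deprivation, -0.019 for recovery, -0.109 for recovery against deprivation, 0.074 between structures and -0.159 for the structure difference of recovery against deprivation, the cytosolic median for recovery against deprivation was 0.03 and the mitochondrial structure difference on deprivation -0.07. Leaving out 1 pool at a time gave these ranges of medians. In the hippocampal formation on deprivation they were 0.028 to 0.096 (cytosolic), -0.139 to 0.252 (mitochondrial), 0.002 to 0.209 (ER) and -0.016 to 0.028 (factors); on recovery -0.22 to 0.171 (mitochondrial), -0.123 to 0.141 (ER) and -0.009 to 0.048 (factors); for recovery against deprivation -0.154 to 0.067 (mitochondrial), -0.153 to 0.006 (ER) and -0.049 to 0.07 (factors). In the neocortex on deprivation they were -0.113 to -0.032 (mitochondrial) and -0.209 to -0.028 (factors); on recovery 0.05 to 0.152 (cytosolic), 0.002 to 0.097 (ER) and -0.099 to 0.068 (factors); for recovery against deprivation -0.051 to 0.057 (cytosolic), -0.057 to 0.028 (mitochondrial), -0.039 to 0.018 (ER) and -0.018 to 0.103 (factors). Structure differences ranged on deprivation over -0.098 to 0.098 (cytosolic), -0.042 to 0.244 (mitochondrial), -0.061 to 0.224 (ER) and 0.013 to 0.261 (factors), on recovery over -0.108 to 0.07, -0.124 to 0.171, -0.148 to 0.132 and -0.142 to 0.079 in the same order, and for recovery against deprivation over -0.086 to 0.094, -0.142 to 0.035, -0.114 to 0.024 and -0.079 to 0.039. The ER stress factor median between structures ranged over -0.064 to 0.019. Without the filter Bag3, Canx and Pdia3 missed the threshold between structures. The causes were not tested.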

Other observations

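Chaperone genes outside the 45 were read from wider lists, also chosen with earlier results of these data known. Between sleep states 0 of 31 cytosolic, 0 of 9 mitochondrial and 0 of 38 ER genes past the filter were called by limma. In deprived against control hippocampal pools the wider ER genes had a median log2 change of -0.014, with 18 of 38 above control, and the wider cytosolic genes 0.031, with 18 of 31 above. In the neocortex the wider cytosolic median was -0.02 on deprivation, with 14 of 31 above, and both deprived pools lay below both controls for 6 (19.4%), against 11.4% of all probe sets. The wider ER median there was 0.01, with 22 of 38 above. In the hippocampal formation, the wider ER genes with the smallest p on deprivation were Txndc5 (-0.39), an ER isomerase, and Uggt1 (-0.44), the folding sensor of glycoproteins. Cdk5rap3, a UFMylation adaptor, gave -0.91 on recovery, and each of these genes had limma adjusted p = 1.0. In recovery against control neocortical pools Hspa2, a testis-enriched HSP70, gave 0.69 (0.75 in set 1 and 0.64 in set 2, limma adjusted p = 1.0). Between structures 7 of the 38 wider ER genes were called higher in the hippocampal formation and 2 lower (23.7% in all, against 19.9% of all probe sets, with 9.4% higher and 10.5% lower). Of these, Wfs1 (0.54, also on the list of hippocampal markers) and Ppib (0.39, a cyclophilin of the ER) had the smallest p. Of 31 wider cytosolic genes 4 were called higher and 1 lower (16.1%), led by Dnaja4 (0.27) and Hsf2 (0.26), and of 9 mitochondrial genes 1 was called, Clpp (0.25, 11.1%), both beside the same 19.9%.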
